A study of Mus musculus with 28 samples.

Results

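The genes described here encode 10 transporters and transporter subunits by which the proximal tubule of the kidney takes up amino acids: *Slc6a18*, *Slc6a19*, *Slc6a20b*, *Slc1a1*, *Slc7a9*, *Slc7a13*, *Slc3a1*, *Slc7a7*, *Slc7a8* and *Slc3a2*. They were chosen by name, as carriers known from this segment. The choice of these genes, and of the gene lists below, was made with earlier results of these data known. They are 10 of the 14845 genes in the deposited table, and all 10 passed the filter on low values that left 13495 genes for testing.

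The proximal tubule reclaims nearly all amino acids that the glomerulus filters. Carriers in the apical brush border bring them into the cell, mostly with sodium, and basolateral exchangers pass them on to the blood. Several of the exchangers are heteromers, in which a light chain of the Slc7 family forms the pore and a heavy chain, *Slc3a1* (rBAT) or *Slc3a2* (4F2hc), carries it to the membrane. In human patients, loss of SLC6A19 causes Hartnup disorder, loss of SLC3A1 or SLC7A9 causes cystinuria and loss of SLC7A7 causes lysinuric protein intolerance.

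The study profiled kidneys of male mice by bulk RNA-seq of total RNA to describe severe diabetic kidney disease. The diseased animals were db/db mice, which carry a mutated leptin receptor gene (*Lepr*) and become obese and diabetic, and which had 1 kidney removed (uninephrectomy, Unx). They gave 12 libraries at 26 weeks of age and 5 at 35 weeks. They were set against db/m mice with both kidneys (intact), which gave 5 libraries at 26 weeks and 6 at 35 weeks. Every db/db mouse was operated and every db/m mouse was intact, so genotype and surgery are 1 contrast and their parts cannot be told apart. The labels do not say whether the libraries came from separate animals; they were treated so here, and p-values measure the spread between libraries only.

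The libraries held an estimated 21774000 to 30764000 counts each, judged from the step between low values, and libraries of 1 group correlated with a Pearson r of 0.966 to 0.990 across genes. *Lepr* averaged 0.745 ± 0.449 and 0.631 ± 0.447 in db/db Unx kidneys of 26 and 35 weeks, against 0.483 ± 0.205 and 2.17 ± 1.33 in db/m kidneys (SD, n = 12, 5, 5 and 6). A value per gene does not separate the long receptor form, so it does not check the genotype. The db/db Unx libraries 03, 05 and 06 of 35 weeks stood apart, at -42.8, -26.7 and -20.1 on a second principal component that held 9.17% of the variance, and the 35-week counts of called transporters and list genes are given with and without them. The summed markers of the proximal tubule (8 of 8 in the table, none at 0 in every library) lay between 14565 and 17125 in db/db Unx and between 22352 and 25890 in db/m kidneys at 26 weeks. At 35 weeks the sums were 13197 to 14827 in db/db Unx and 21194 to 24506 in db/m kidneys. By contrast, the sums of 6 markers of its S1 to S2 segments overlapped between the groups at both ages. They were 2626 to 3295 in db/db Unx and 2807 to 3297 in db/m kidneys at 26 weeks. At 35 weeks they were 2568 to 3049 in db/db Unx and 2758 to 3201 in db/m kidneys. The lower sum of the 8 markers was thus not shared by all marker lists of the proximal tubule, and its cause was not tested. Fewer tubule cells and less RNA per tubule cell cannot be told apart in whole kidney.

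Within 1 set of kidneys the transporters went both ways. At 26 weeks, 4 of the 10 were higher in db/db Unx than in db/m kidneys (*Slc7a8*, *Slc3a2*, *Slc7a7* and *Slc6a19*), 4 were lower (*Slc7a13*, *Slc6a20b*, *Slc3a1* and *Slc1a1*), and *Slc6a18* and *Slc7a9* did not pass the test. Of all genes tested, 34.9% passed at 26 weeks, 17.2% as higher and 17.7% as lower. At 35 weeks, 3 were higher (*Slc3a2*, *Slc7a7* and *Slc6a18*), the same 4 were lower, and 3 did not pass, beside 32.3% of all genes (15.9% higher, 16.4% lower). Without libraries 03, 05 and 06, 1 was higher and 4 were lower at 35 weeks, beside 8.39% of all genes higher and 9.45% lower. The median log2 change of the 10 was 0.11 at both ages, beside 0.02 and 0.01 over all genes tested. A gene is said to have risen, fallen or been called where limma gave an adjusted p below 0.05 (Benjamini-Hochberg over 13495 genes, two-sided), and log2 changes are of the deposited value + 1, db/db Unx over db/m. When each library was scaled to the sum of its proximal tubule markers, 8 transporters were called higher and 1 lower at each age. Of all genes, 80.0% were then higher and 2.90% lower at 26 weeks, and 83.8% higher and 2.19% lower at 35 weeks. Under that scaling the fall of *Slc3a1* and *Slc1a1* turned into a rise at both ages, *Slc6a18* (0.70 and 1.07) and *Slc7a9* (0.75 and 0.72) were called higher at both, and *Slc6a20b* was no longer called. Scaled to the geometric mean of the markers, 7 were higher and 2 lower at 26 weeks, beside 69.3% and 4.25% of all genes, and 8 were higher and 2 lower at 35 weeks, beside 73.8% and 3.25%, with *Slc6a20b* among the lower. Scaling to the sum moved the median of all genes to 0.57 at 26 weeks and 0.69 at 35 weeks, and *Slc3a1* (0.28 and 0.32) and *Slc1a1* (0.28 and 0.38) lay below it.

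**Figure D1:**
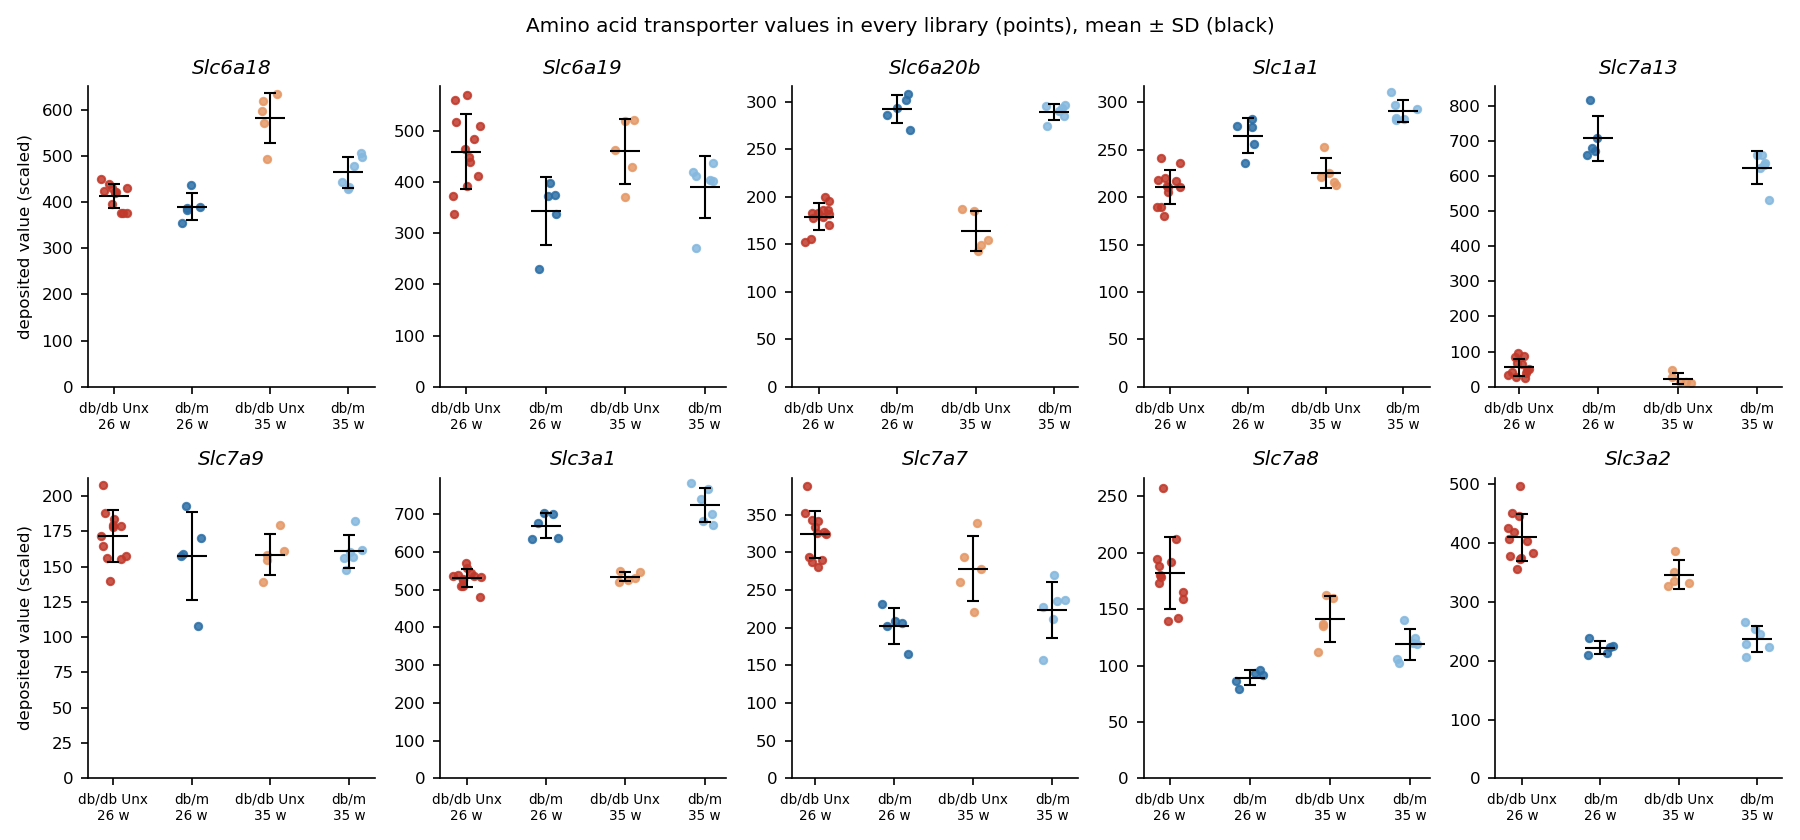
Deposited scaled value (vertical axis, from 0) of each transporter in every library (points), by group, with the group mean and SD in black. *Slc7a13* lies between 11.5 and 95.2 in db/db Unx kidneys and between 531 and 815 in db/m kidneys, while *Slc7a9* overlaps between all groups.

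**Figure D2:**
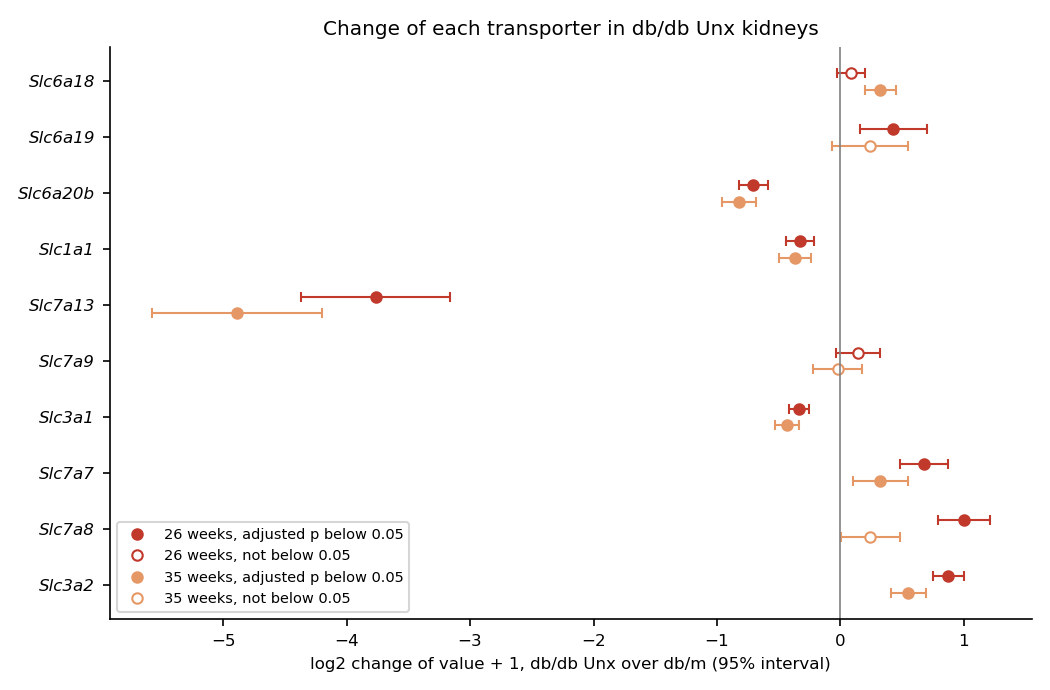
Log2 change of each transporter in db/db Unx over db/m kidneys at 26 weeks (dark red) and 35 weeks (orange), with 95% intervals; filled points have an adjusted p below 0.05. *Slc7a13* stands at -3.77 and -4.89, and the others lie between -0.82 and 1.00. Scaled to proximal tubule markers, *Slc3a1* and *Slc1a1* turn positive at both ages and *Slc7a9* at 35 weeks. Under that scaling the median of all genes is 0.57 at 26 weeks and 0.69 at 35 weeks.

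Among the apical carriers of neutral amino acids, *Slc6a20b* was lower in diseased kidneys, *Slc6a19* higher at 26 weeks, and *Slc6a18* higher at 35 weeks. *Slc6a18* (ENSMUSG00000021612) encodes B0AT3, a sodium-dependent carrier of glycine and other neutral amino acids. It lies on chromosome 13 at 73661752-73678023 of GRCm38, 1721 bases from *Slc6a19*. Its value in db/db Unx kidneys of 26 weeks was lowest at 375, median 422 and highest at 449, against 354, 383, 388, 390.1 and 436 in db/m kidneys. At 35 weeks the 5 db/db Unx kidneys had 494, 571, 596, 618 and 633, against a lowest of 429, a median of 461 and a highest of 507 in db/m kidneys. The groups overlapped at both ages, and at 35 weeks the lowest db/db Unx kidney was the one that reached into the db/m range. The log2 change was 0.08 ± 0.05 (SE, adjusted p = 0.246) at 26 weeks and 0.32 ± 0.06 (adjusted p = 8.7e-05) at 35 weeks. Without the 3 libraries that stood apart, the 35-week change was 0.23 (adjusted p = 0.052). After quantile normalization *Slc6a18* was called at 26 weeks too (0.25, adjusted p = 5.0e-04).

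*Slc6a19* (ENSMUSG00000021565; chromosome 13, 73679745-73704865) encodes B0AT1, the main apical carrier of neutral amino acids. Its value in db/db Unx kidneys of 26 weeks was lowest at 337, median 457 and highest at 570.4, against 231, 338, 373, 375 and 397 in db/m kidneys. At 35 weeks the values were 369.9, 429, 463, 518 and 521 in db/db Unx kidneys, against a lowest of 270.2, a median of 407 and a highest of 437 in db/m kidneys. In each db/m group 1 library lay well under the others, number 04 at 26 weeks (231) and number 05 at 35 weeks (270.2). Both were also the lowest of their group in *Slc7a7* and *Slc7a9*. The log2 change was 0.43 ± 0.13 (SE, adjusted p = 0.012) at 26 weeks and 0.24 ± 0.15 (adjusted p = 0.235) at 35 weeks. Without db/m library 04 the 26-week change was 0.29 and was not called (adjusted p = 0.078). After quantile normalization the 35-week change was called (0.39, adjusted p = 0.043). *Slc6a19os*, a gene on the opposite strand, overlaps *Slc6a19*, and whether reads were counted by strand is not given in the sources used here.

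*Slc6a20b* (ENSMUSG00000025243; chromosome 9, 123590800-123632565) is a mouse gene of the sodium-dependent imino acid carrier family, next to its close relative *Slc6a20a* at a distance of 2204 bases. It had a lowest value of 152, a median of 182 and a highest of 199.97 in db/db Unx kidneys of 26 weeks, against 270.5, 286, 294, 302 and 308 in db/m kidneys. At 35 weeks it had 143, 149.6, 155, 185 and 188 in db/db Unx kidneys, against a lowest of 275, a median of 292 and a highest of 297 in db/m kidneys. No db/db Unx kidney reached the lowest db/m kidney at either age. *Slc6a20b* fell by 0.70 ± 0.06 (SE, adjusted p = 2.7e-12) and by 0.82 ± 0.07 (adjusted p = 1.9e-12) on the log2 scale at 26 and 35 weeks. Of the 10 transporters, 3 were higher and 3 lower without overlap at 26 weeks, beside 12.8% of all genes (5.11% higher, 7.68% lower). At 35 weeks 1 was higher and 4 were lower without overlap, beside 18.1% of all genes (7.84% higher, 10.3% lower). *Slc6a20a* itself averaged 23.2 ± 3.73 and 26.7 ± 2.70 in db/db Unx kidneys of 26 and 35 weeks, against 22.9 ± 3.90 and 27.8 ± 4.07 in db/m kidneys (SD, n = 12, 5, 5 and 6), and did not pass the test at either age (log2 0.02 and -0.05). How the authors' counting treated reads shared by the pair, or with *Sacm1l* on the opposite strand, is not given in the sources used here, so the split is uncertain.

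*Slc1a1* (ENSMUSG00000024935; chromosome 19, 28835049-28913960) encodes EAAT3, also called EAAC1, the apical carrier of glutamate and aspartate. At 26 weeks db/db Unx kidneys were lowest at 180.5, median 211 and highest at 241, against 236, 256, 274, 275 and 282 in db/m kidneys. At 35 weeks the values were 212, 216, 221, 226 and 253 in db/db Unx kidneys, against a lowest of 281, a median of 288 and a highest of 311 in db/m kidneys. The groups met at 26 weeks and were apart at 35 weeks. On the deposited scale *Slc1a1* fell by 0.33 ± 0.06 (SE, adjusted p = 9.1e-06) and 0.37 ± 0.06 (adjusted p = 1.4e-05) on the log2 scale. It turned positive when scaled to proximal tubule markers, as given above. *4430402I18Rik* and *Gm5822* overlap it on the opposite strand.

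Among the apical carriers of cystine and of basic and acidic amino acids, *Slc7a13* showed the lowest values relative to db/m of all 10 genes. *Slc7a13* (ENSMUSG00000041052; chromosome 4, 19818725-19842218, plus strand) encodes AGT1, a light chain that pairs with *Slc3a1* in the straight S3 segment of the mouse tubule and carries aspartate, glutamate and cystine. In db/db Unx kidneys of 26 weeks its value was lowest at 23.7, median 48.8 and highest at 95.2, against 659, 671, 680.4, 707 and 815 in db/m kidneys. At 35 weeks the 5 db/db Unx kidneys had 11.5, 13.3, 14.9, 27.6 and 49.0, against a lowest of 531, a median of 633 and a highest of 659 in db/m kidneys. Even the highest diseased kidney lay far under the lowest db/m kidney at both ages. The mean in db/db Unx kidneys was 7.86% of the db/m mean at 26 weeks and 3.73% at 35 weeks. The log2 change was -3.77 ± 0.29 (SE, adjusted p = 1.1e-10) and -4.89 ± 0.33 (adjusted p = 1.3e-11), and it kept its sign and call under every alternative scaling tried. Without the 3 libraries that stood apart, the 35-week change of *Slc7a13* was -4.04 (adjusted p = 8.5e-08).

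Genes of the straight segment went both ways in the same kidneys, and genes of the male kidney were mostly low. The 7 markers of the S3 segment summed to 1112 to 1316 in db/db Unx and 1628 to 1824 in db/m kidneys at 26 weeks, and to 1187 to 1591 in db/db Unx and 1608 to 2011 in db/m kidneys at 35 weeks. At 26 weeks 4 of the 7 fell and 2 rose, and at 35 weeks 4 fell and 1 rose, with all libraries and without libraries 03, 05 and 06. Of all genes tested, 17.7% fell and 17.2% rose at 26 weeks, and 16.4% fell and 15.9% rose at 35 weeks. Without those 3 libraries 9.45% of all genes fell and 8.39% rose. *Slc22a7*, an organic anion carrier, had a log2 change of -4.78 and -4.07, and *Slc22a19*, *Atp11a* and *Cyp7b1* fell as well. *Slc5a10*, a sodium-dependent sugar carrier, averaged 752 ± 60.6 and 840.3 ± 109.9 in db/db Unx kidneys of 26 and 35 weeks, against 228 ± 24.7 and 253 ± 18.9 in db/m kidneys (SD, n = 12, 5, 5 and 6), and rose by 1.72 on the log2 scale at both ages (limma, adjusted p = 1.1e-20 and 4.0e-19). It was named after its values were seen. Among 11 genes that are more abundant in male than in female mouse kidney or respond to androgen, *Cyp7b1* again among them, 10 fell at each age, with a median log2 change of -2.29 and -2.81. Without libraries 03, 05 and 06, 10 of the 11 fell and 0 rose at 35 weeks, with a median of -2.38. *Kap*, the androgen-regulated kidney protein, averaged 2114 ± 789 and 788 ± 399.98 in db/db Unx kidneys of 26 and 35 weeks, against 19528 ± 1473 and 14649 ± 1492 in db/m kidneys (SD, n = 12, 5, 5 and 6). *Slco1a1*, an organic anion carrier, averaged 24.9 ± 17.7 and 2.21 ± 2.12 in db/db Unx kidneys, against 635 ± 122 and 480.4 ± 55.4 in db/m kidneys. The part of segment makeup or of androgen-responsive expression in the value of *Slc7a13* was not tested.

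The cystine and dibasic exchanger itself showed unequal change of its 2 chains. *Slc7a9* (ENSMUSG00000030492; chromosome 7, 35448796-35466036) encodes b0,+AT, the light chain. At 26 weeks db/db Unx values were lowest at 139.7, median 175 and highest at 208, against 108, 158, 159, 170.1 and 193 in db/m kidneys. At 35 weeks it had 139, 155, 158, 161 and 179 in db/db Unx kidneys, against a lowest of 148, a median of 159 and a highest of 183 in db/m kidneys. The groups overlapped at both ages. The log2 change was 0.14 at 26 weeks (95% interval -0.04 to 0.32, adjusted p = 0.222) and -0.02 at 35 weeks (-0.22 to 0.18, adjusted p = 0.889). It was called higher at 26 weeks after quantile normalization (0.24, adjusted p = 0.024).

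*Slc3a1* (ENSMUSG00000024131; chromosome 17, 85028376-85064236, plus strand) encodes the heavy chain rBAT. The db/db Unx kidneys of 26 weeks were lowest at 481, median 535 and highest at 571, against 635, 636, 676, 701 and 702 in db/m kidneys. At 35 weeks it had 521, 525.9, 531, 548 and 549 in db/db Unx kidneys, against a lowest of 672, a median of 721 and a highest of 783 in db/m kidneys. The groups were apart at both ages. *Slc3a1* fell by 0.33 ± 0.04 (SE, adjusted p = 2.7e-08) and 0.43 ± 0.05 (adjusted p = 1.9e-09) on the log2 scale of the deposited values, and turned positive when scaled to proximal tubule markers. *Prepl* overlaps it on the opposite strand.

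On the basolateral side, both light chains and their heavy chain rose at 26 weeks, and *Slc7a8* did not pass at 35 weeks. *Slc3a2* (ENSMUSG00000010095; chromosome 19, 8706882-8723369, minus strand) encodes 4F2hc, the heavy chain of many Slc7 light chains. In db/db Unx kidneys of 26 weeks it was lowest at 356, median 406 and highest at 497, against 210.1, 214, 223, 225 and 239 in db/m kidneys. At 35 weeks it had 327, 333, 336, 351 and 387 in db/db Unx kidneys, against a lowest of 206, a median of 237 and a highest of 266 in db/m kidneys. Every db/db Unx kidney lay above every db/m kidney of its age. The log2 change was 0.87 ± 0.06 (SE, adjusted p = 3.8e-14) at 26 weeks and 0.55 ± 0.07 (adjusted p = 7.1e-08) at 35 weeks. *Slc3a2* is expressed in most cell types, so its rise in whole kidney is not located to the proximal tubule by these data.

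*Slc7a7* (ENSMUSG00000000958; chromosome 14, 54369442-54417780) encodes y+LAT1, which exports basic amino acids in exchange for neutral amino acids and sodium. Its value in db/db Unx kidneys of 26 weeks was lowest at 281, median 326 and highest at 388, against 165, 202, 206, 209 and 232 in db/m kidneys. At 35 weeks it had 221, 260.3, 278, 293 and 339 in db/db Unx kidneys, against a lowest of 157, a median of 231 and a highest of 270.5 in db/m kidneys. The groups were apart at 26 weeks and overlapped at 35 weeks. *Slc7a7* rose by 0.68 ± 0.10 (SE, adjusted p = 1.5e-06) and 0.32 ± 0.11 (adjusted p = 0.023) on the log2 scale. The 35-week call was lost without db/m library 05 (0.23, adjusted p = 0.065), without db/db Unx library 03 (0.25, adjusted p = 0.090) or 06 (0.30, adjusted p = 0.058), and without libraries 03, 05 and 06 together (0.17, adjusted p = 0.476). *Oxa1l* overlaps it on the opposite strand.

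*Slc7a8* (ENSMUSG00000022180; chromosome 14, 54722209-54781946) encodes LAT2, an exchanger of neutral amino acids. Its value in db/db Unx kidneys of 26 weeks was lowest at 139, median 179.6 and highest at 258, against 79.2, 86.3, 91.5, 93.5 and 95.9 in db/m kidneys. At 35 weeks it had 112, 135, 136, 159 and 162 in db/db Unx kidneys, against a lowest of 102, a median of 119.5 and a highest of 141 in db/m kidneys. At 26 weeks every db/db Unx kidney lay above every db/m kidney, and at 35 weeks the groups overlapped. The log2 change was 1.00 ± 0.10 (SE, adjusted p = 3.5e-09) at 26 weeks and 0.24 ± 0.12 (adjusted p = 0.117) at 35 weeks. The 35-week change was called without db/db Unx library 02 (0.32, adjusted p = 0.038).

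The 2 heavy chains thus moved apart on the deposited scale, and their upstream sequences are shown for that reason. Both are the 250 bases before a RefSeq start on GRCm38.p6, read 5′ to 3′ on the strand of the gene: *Slc3a1* from chr17:85028097-85028346 (plus strand) and *Slc3a2* from chr19:8713898-8714147 (minus strand), a RefSeq start inside the GENCODE gene. Capitals mark the only match to the 4 motifs searched in them.
Slc3a1: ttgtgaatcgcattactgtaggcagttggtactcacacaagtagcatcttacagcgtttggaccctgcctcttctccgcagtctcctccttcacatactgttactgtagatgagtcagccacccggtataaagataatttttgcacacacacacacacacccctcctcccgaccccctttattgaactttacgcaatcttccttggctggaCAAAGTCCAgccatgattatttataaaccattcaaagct
Slc3a2: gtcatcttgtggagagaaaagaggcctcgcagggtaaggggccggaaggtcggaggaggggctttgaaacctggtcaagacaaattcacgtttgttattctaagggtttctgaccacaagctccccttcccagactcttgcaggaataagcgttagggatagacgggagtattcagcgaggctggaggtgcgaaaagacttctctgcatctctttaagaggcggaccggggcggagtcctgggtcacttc
The motifs were searched on both strands: an HNF4 element (CAAAGTCCA), an HNF1 half-site (GTTAAT), an ATF4 element (TGATGCAA) and an androgen receptor half-site (AGAACA). The HNF4 element starts 39 bases before the *Slc3a1* start, on the strand of the gene, and it was found in 0.384% of 32851 RefSeq windows of this length. The HNF1 half-site was found in 6.43% of windows, the ATF4 element in 0.791% and the androgen receptor half-site in 16.1%. RefSeq gave 13 such windows for 8 of the 10 genes. Among the others, *Slc6a19* and 2 of the 5 starts of *Slc7a7* held an androgen receptor half-site, 1 start of *Slc7a7* also held the ATF4 element, and another held the HNF1 half-site. The 2 *Slc7a7* windows with the androgen receptor half-site overlap and share a single site, 209 and 232 bases before their starts. A match describes letters in a window and not a bound site.

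Ratios between chains are given as a description, without a test. The first sets the heavy chains of different heteromers against each other, and the others set a light chain over its heavy chain. The log2 ratio of *Slc3a1* over *Slc3a2* averaged 0.38 ± 0.13 in db/db Unx kidneys of 26 weeks against 1.59 ± 0.10 in db/m kidneys, and 0.63 ± 0.12 in db/db Unx against 1.61 ± 0.19 in db/m kidneys at 35 weeks (SD, n = 12, 5, 5 and 6). Since neither *Slc3a1* nor *Slc3a2* overlapped between the groups at either age, and they moved apart, this ratio could not overlap. It adds no separate result. The highest db/db Unx ratio was 0.58 and the lowest db/m ratio 1.49 at 26 weeks. At 35 weeks they were 0.74 and 1.40. The ratio of *Slc7a9* over *Slc3a1* averaged -1.63 ± 0.14 in db/db Unx and -2.10 ± 0.26 in db/m kidneys at 26 weeks, and -1.75 ± 0.16 in db/db Unx and -2.16 ± 0.13 in db/m kidneys at 35 weeks. Its ranges just overlapped at 26 weeks, with a lowest db/db Unx ratio of -1.858 and a highest db/m ratio of -1.856. They were apart at 35 weeks (-1.97 and -2.06). For *Slc7a13* over *Slc3a1* the means were -3.36 ± 0.64 in db/db Unx and 0.07 ± 0.17 in db/m kidneys at 26 weeks, and -4.68 ± 0.80 in db/db Unx and -0.22 ± 0.13 in db/m kidneys at 35 weeks. On the basolateral side the means lay closer together and the ranges overlapped at both ages. *Slc7a7* over *Slc3a2* averaged -0.34 ± 0.12 in db/db Unx and -0.14 ± 0.17 in db/m kidneys at 26 weeks, and -0.33 ± 0.15 in db/db Unx and -0.10 ± 0.15 in db/m kidneys at 35 weeks. The ratio of *Slc7a8* over *Slc3a2* had the higher mean in db/db Unx kidneys at 26 weeks (-1.18 ± 0.20, against -1.31 ± 0.12 in db/m kidneys) and the lower mean there at 35 weeks (-1.30 ± 0.15, against -0.995 ± 0.21 in db/m kidneys). These ratios are of deposited values + 1, which are not corrected for length.

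With age, 1 of the 10 transporters was higher and 3 were lower at 35 weeks in db/db Unx kidneys, beside 11.3% of all genes (5.16% higher, 6.14% lower). In db/m kidneys 2 were higher and 0 lower, beside 7.40% of all genes (2.73% higher, 4.68% lower). *Slc6a18* was higher at 35 than at 26 weeks in both genotypes. Its log2 change was 0.49 ± 0.05 (SE, adjusted p = 5.6e-07) in db/db Unx kidneys, where the ages did not overlap, and 0.25 ± 0.06 (adjusted p = 0.0098) in db/m kidneys. Among db/db Unx kidneys it was the only one of the 10 whose ages did not overlap, beside 1.34% of all genes (0.482% higher, 0.860% lower). The db/m call was lost without library 05 of 26 weeks (0.22, adjusted p = 0.0505). Among db/db Unx kidneys *Slc7a13* (-1.31 ± 0.29, adjusted p = 0.0055), *Slc7a8* (-0.36 ± 0.10, adjusted p = 0.022) and *Slc3a2* (-0.24 ± 0.06, adjusted p = 0.011) were lower at 35 than at 26 weeks. Without the 3 libraries that stood apart, *Slc6a18* remained called in db/db Unx kidneys (0.39, adjusted p = 0.032). *Slc7a13* was then at -0.46 (adjusted p = 0.845), *Slc7a8* at -0.41 (adjusted p = 0.510) and *Slc3a2* at -0.27 (adjusted p = 0.396). Scaled to proximal tubule markers, the age changes of *Slc7a8* (-0.21, adjusted p = 0.129) and *Slc3a2* (-0.09, adjusted p = 0.294) in db/db Unx kidneys were not called. Under that scaling 4 transporters were still called with age there, so others were called in their place. The 3 libraries that stood apart had the lowest values of *Slc7a13*, 11.5, 13.3 and 14.9, beside 27.6 and 49.0 in the other 2 of 35 weeks. The labels give no batch, so age and a batch that follows it cannot be told apart.

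*Slc7a8* was the only one of the 10 for which the disease comparison itself differed between the ages, beside 0.548% of all genes. In db/m kidneys it was higher at 35 weeks (102 to 141) than at 26 weeks (79.2 to 95.9), with a log2 change of 0.40 ± 0.12 (SE, adjusted p = 0.031) and ages that did not overlap, beside 4.99% of all genes (1.50% higher, 3.49% lower). In db/db Unx kidneys it was lower at 35 weeks (112 to 162) than at 26 weeks (139 to 258). The disease change at 35 weeks minus that at 26 weeks was -0.76 ± 0.16 on the log2 scale (adjusted p = 0.024). It lost its call without db/db Unx library 05 of 35 weeks (-0.75, adjusted p = 0.058), without libraries 03, 05 and 06 together (-0.81, adjusted p = 0.164), and without db/m libraries 04 of 26 weeks and 05 of 35 weeks together (-0.75, adjusted p = 0.065). The age change in db/db Unx kidneys was likewise lost without library 02 (-0.28, adjusted p = 0.080), 05 (-0.35, adjusted p = 0.075) or 06 (-0.34, adjusted p = 0.069) of 35 weeks. The rise in db/m kidneys was not called without library 04 or 05 of 26 weeks, nor without library 01, 03, 04 or 05 of 35 weeks, with adjusted p between 0.056 and 0.099. For the other 9 genes the difference between the ages did not pass, with log2 differences from -1.13 for *Slc7a13* (adjusted p = 0.272) to 0.24 for *Slc6a18* (adjusted p = 0.177), which was called when scaled to proximal tubule markers (0.37, adjusted p = 0.033).

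Levels were compared between genes only per kilobase of merged exons. In db/db Unx kidneys of 26 weeks *Slc3a1* led with 234 ± 10.4 per kilobase, apart from *Slc3a2* with 116 ± 11.5 (SD, n = 12), and *Slc7a7*, *Slc6a18* and *Slc6a19* followed with overlapping ranges (97.7, 93.6 and 91.7). In db/m kidneys of 26 weeks *Slc7a13* (329.9 ± 29.6) and *Slc3a1* (295 ± 14.6) led with ranges that overlapped, apart from *Slc6a18* with 88.4 ± 6.64 (SD, n = 5). *Slc7a8* stood last there with 17.8 ± 1.33. In db/db Unx kidneys of 35 weeks *Slc3a1* (236 ± 5.69) was followed by *Slc6a18* (132 ± 12.4), and *Slc7a13* stood last with 10.9 ± 7.34 (SD, n = 5). In db/m kidneys of 35 weeks *Slc3a1* (319 ± 20.1) and *Slc7a13* (291 ± 22.1) again led with overlapping ranges (SD, n = 6). By the mean *Slc7a13* therefore ranked 8 and 10 of 10 in db/db Unx kidneys of 26 and 35 weeks, and 1 and 2 in db/m kidneys. In db/db Unx kidneys its range overlapped that of *Slc1a1*, next below it at 26 weeks, and that of *Slc6a20b*, next above it at 35 weeks. By the median at 26 weeks it stood below *Slc1a1* (22.8 against 25.6 per kilobase). Divided by the longest coding transcript instead, it was last in db/db Unx kidneys of 26 weeks too.

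**Figure D3:**
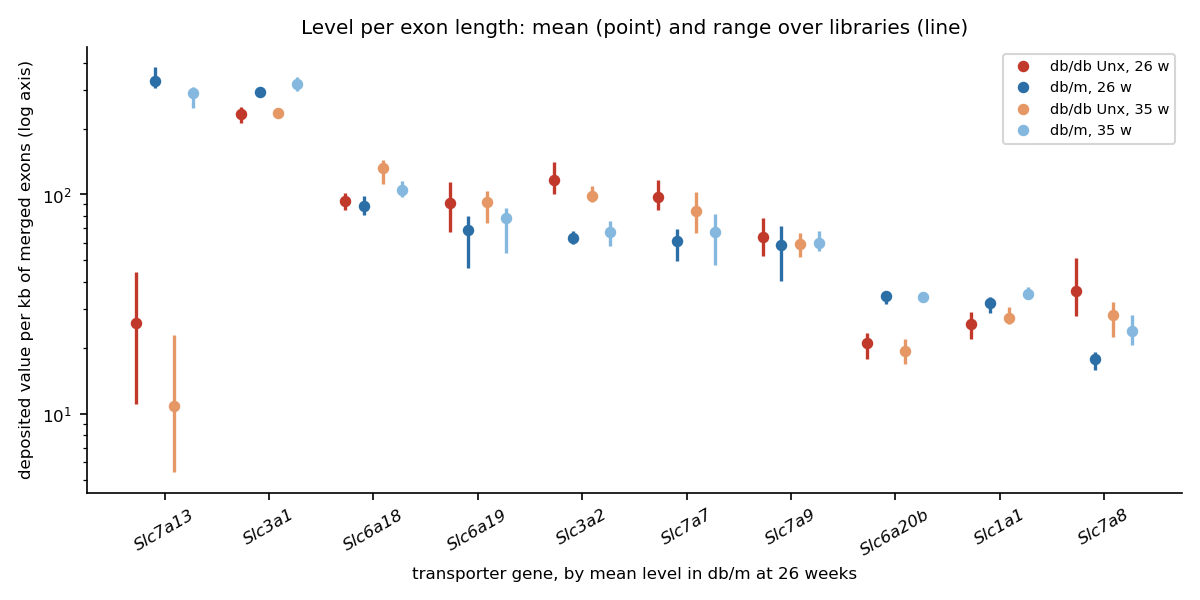
Deposited value per kilobase of merged exons (log axis) of each transporter in the 4 groups, ordered by the mean in db/m kidneys of 26 weeks; points are means and lines the range over libraries. *Slc7a13* runs from 5.39 to 44.5 in db/db Unx kidneys and from 248 to 381 in db/m kidneys, and *Slc3a1* stays between 212 and 345 in all groups.

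How the transporters varied among the 12 db/db Unx kidneys of 26 weeks is given as a description, on log2 values and with no test. The points share library depth and the cell makeup of each kidney. *Slc7a7* and *Slc7a9*, the light chains at opposite faces of the cell, had the highest correlation (Pearson r = 0.82, Spearman rho = 0.69), with 0.72 after leaving out the 2 kidneys farthest from the median of *Slc7a7*. *Slc6a19* and *Slc7a8* had r = 0.77 (rho = 0.65), and 0.60 without the 2 farthest. *Slc6a20b* and *Slc3a1* had r = 0.67 (rho = 0.52), which was 0.23 without the 2 farthest kidneys and so rests on them. The chains of the cystine exchanger, *Slc7a9* and *Slc3a1*, had r = 0.44. Basolateral light chains had r = 0.64 (*Slc7a7*, rho = 0.61) and 0.55 (*Slc7a8*, rho = 0.64) with their heavy chain *Slc3a2*. Without the 2 kidneys farthest from the median of the light chain these were 0.49 and 0.41. *Slc7a13* had its lowest correlation with *Slc6a19* (r = -0.65, rho = -0.61), which was -0.43 without the 2 farthest, and correlations near 0 with *Slc3a1* (-0.0026) and *Slc3a2* (0.04).

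**Figure D4:**
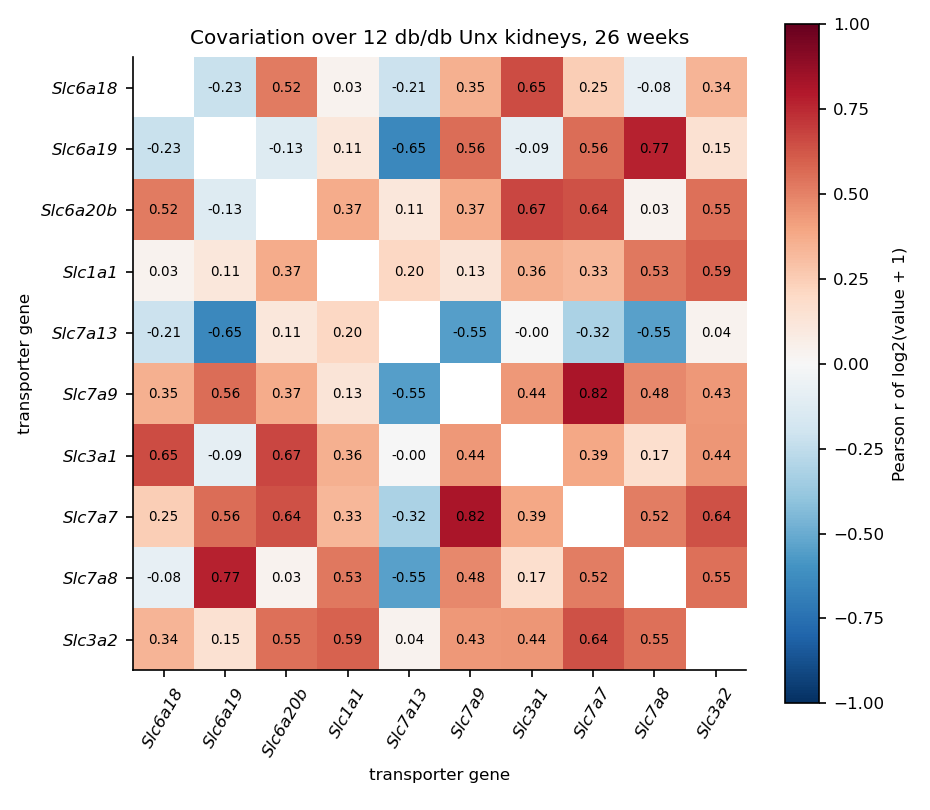
Pearson correlation of log2 values between each pair of transporters over the 12 db/db Unx kidneys of 26 weeks, from blue (-1) to red (1). *Slc7a7* with *Slc7a9* is highest at 0.82 and *Slc6a19* with *Slc7a13* lowest at -0.65.

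Over all 28 libraries, after subtracting group means, the gene most like each transporter was sought among 6748 tested genes of at least median level (19.7). *Slc7a13* was nearest to *Serpinf2* (r = 0.83), *Gclc* (0.83) and *Kap* (0.82). *Slc7a9* was nearest to *Asl* (0.82), *Mthfd1* (0.76) and *Fmo2* (0.72), and *Slc7a7* to *Pdzk1ip1* (0.77), *Tmem8* (0.75) and again *Asl* (0.75), which encodes argininosuccinate lyase. *Slc6a19* was nearest to *Slc2a2*, the basolateral glucose carrier of the tubule (0.79), *Nr1d2* (0.74) and *Dazap2* (0.74). *Slc3a2* was nearest to *Prkcz* (0.79), *Cela1* (0.72) and *Snap47* (0.69), and *Slc6a20b* to *Tango2* (0.78), *Aspa* (0.69) and *Preb* (0.68). *Slc1a1* was nearest to *Noa1* (0.75), *Rbbp4* (0.69) and *Acss2* (0.69), *Slc7a8* to *Dab2* (0.74), *Acss1* (0.71) and *Map7* (0.71), *Slc3a1* to *Tmem70* (0.72), *Pdcl3* (0.69) and *Osbpl9* (0.67), and *Slc6a18* to *Gkap1* (0.70), *Nkiras2* (0.67) and *Dnajc18* (0.63).

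Of 7 genes for partners and trafficking proteins of these carriers, 4 fell and 1 rose at 26 weeks and 3 fell and 2 rose at 35 weeks on the deposited scale. Of all genes tested, 17.7% fell and 17.2% rose at 26 weeks, and 16.4% fell and 15.9% rose at 35 weeks. Scaled to proximal tubule markers, 5 and 7 were called higher and 0 lower, beside 80.0% and 83.8% of all genes higher. Without libraries 03, 05 and 06, 3 fell and 0 rose at 35 weeks, beside 9.45% and 8.39% of all genes. *Cltrn*, collectrin, the partner of the kidney B0AT carriers, averaged 1702 ± 101 and 1489 ± 89.7 in db/db Unx kidneys of 26 and 35 weeks, against 1991 ± 184 and 1919 ± 119 in db/m kidneys (SD, n = 12, 5, 5 and 6). Its log2 change was -0.22 (adjusted p = 4.7e-04) and -0.37 (adjusted p = 2.8e-06), and it turned positive at both ages when scaled to proximal tubule markers, and at 26 weeks after quantile normalization. The scaffolds *Pdzk1* (-0.55 and -0.56) and *Slc9a3r1* (-0.64 and -0.48) fell on the deposited scale, while scaled to proximal tubule markers *Pdzk1* turned positive at both ages and *Slc9a3r1* at 35 weeks. *Sgk1*, a kinase that raises the surface level of several carriers, rose by 0.91 and 1.36.

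Among 25 other carriers of amino acids, taurine, betaine and peptides that were tested, 13 rose and 5 fell at each age, with a median log2 change of 0.39 and 0.37. Of all genes tested, 17.2% rose and 17.7% fell at 26 weeks, and 15.9% rose and 16.4% fell at 35 weeks. *Slc38a3*, the basolateral glutamine carrier SNAT3, averaged 175 ± 35.9 and 159.96 ± 46.7 in db/db Unx kidneys of 26 and 35 weeks, against 20.4 ± 2.57 and 22.7 ± 2.94 in db/m kidneys (SD, n = 12, 5, 5 and 6), a log2 change of 3.02 and 2.72. *Slc6a12*, the betaine carrier BGT1, rose by 2.57 and 1.25, and *Slc7a12* by 1.98 and 1.85. The values of *Slc6a12* were low, 9.21 ± 3.44 and 6.84 ± 4.23 in db/db Unx kidneys of 26 and 35 weeks. In db/m kidneys they lay near the floor, at 0.763 ± 0.803 and 2.57 ± 2.65 (SD). *Slc38a2*, the neutral amino acid carrier SNAT2, rose by 0.52 and 1.32. *Slc6a15* (-1.32 and -1.40) and *Slc1a4* (-1.23 and -0.94), both sodium-dependent carriers of neutral amino acids, fell at both ages. Without libraries 03, 05 and 06, 8 of the 25 rose and 5 fell at 35 weeks, beside 8.39% and 9.45% of all genes. Scaled to proximal tubule markers, 20 were called higher and 4 lower at 26 weeks and 17 higher and 1 lower at 35 weeks. Of all genes, 80.0% were then higher and 2.90% lower at 26 weeks, and 83.8% and 2.19% at 35 weeks. Under that scaling the fall of *Slc36a1* at both ages and of *Slc15a2* at 35 weeks, both called, turned into positive values.

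Of 10 brush border peptidases, which release amino acids from peptides in the tubular fluid, 6 fell and 2 rose at 26 weeks and 7 fell and 2 rose at 35 weeks. Of all genes tested, 17.7% fell and 17.2% rose at 26 weeks, and 16.4% fell and 15.9% rose at 35 weeks. *Mep1b* (meprin beta) averaged 17.0 ± 3.63 and 18.5 ± 4.49 in db/db Unx kidneys, against 105 ± 16.7 and 109 ± 7.93 in db/m kidneys, a log2 change of -2.58 and -2.53. *Ace*, the angiotensin-converting enzyme, changed by -2.36 and -2.23, *Ggt1* by -0.93 and -0.90, and *Mme* by -0.68 and -0.83. *Mep1a* (meprin alpha) averaged 471 ± 47.6 and 468 ± 18.4 in db/db Unx kidneys, against 915 ± 71.1 and 939 ± 54.4 in db/m kidneys, and fell at both ages. *Xpnpep2*, an aminopeptidase for peptides with proline, rose by 1.29 and 1.01. Scaled to proximal tubule markers the peptidases split into 5 higher and 4 lower at each age, with *Anpep* turning positive at both and *Enpep* at 35 weeks. Of all genes, 80.0% were then higher and 2.90% lower at 26 weeks, and 83.8% and 2.19% at 35 weeks. Without libraries 03, 05 and 06, 6 fell and 0 rose at 35 weeks, beside 9.45% and 8.39% of all genes.

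Enzymes that use amino acids in the tubule were mostly higher, 16 of 26 against 5 lower at 26 weeks and 14 against 7 lower at 35 weeks. Of all genes tested, 17.2% rose and 17.7% fell at 26 weeks, and 15.9% rose and 16.4% fell at 35 weeks. At 35 weeks 12 of the 26 rose and 6 fell without libraries 03, 05 and 06, beside 8.39% and 9.45% of all genes. Scaled to proximal tubule markers, 24 were called higher and 0 lower at 26 weeks and 24 higher and 1 lower at 35 weeks, with 5 of the lower ones turned positive at each age. Of all genes, 80.0% and 83.8% were then higher. *Arg2*, mitochondrial arginase, averaged 19.3 ± 3.26 and 31.2 ± 7.72 in db/db Unx kidneys, against 3.99 ± 0.954 and 4.74 ± 1.017 in db/m kidneys (log2 2.03 and 2.47). *Gldc*, of the glycine cleavage system, rose by 2.34 and 2.04, *Hpd* by 1.41 and 0.88, *Ddc* by 1.39 and 0.85, *Shmt1* by 1.03 and 0.84 and *Prodh2* by 1.03 and 0.83. Of 16 genes of the response to amino acid shortage, *Atf4* itself and genes known as its targets, 3 rose at 26 weeks and 8 at 35 weeks. None fell, and 17.2% and 15.9% of all genes rose. Scaled to proximal tubule markers, 12 and 14 of the 16 were called higher, near the share of all genes (80.0% and 83.8%). *Nupr1* rose by 1.38 and 1.73 and *Psat1*, of serine synthesis, by 0.82 and 1.20, while *Atf3* (0.50, adjusted p = 0.110) and *Cebpb* (0.17, adjusted p = 0.465) did not pass at 26 weeks and rose by 1.22 and 1.08 at 35 weeks. At 35 weeks 4 of the 16 rose without libraries 03, 05 and 06, beside 8.39% of all genes.

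Of 8 transcription factors of the proximal tubule, 2 rose and 2 fell at 26 weeks, and 1 rose and 4 fell at 35 weeks. Of all genes tested, 17.2% rose and 17.7% fell at 26 weeks, and 15.9% rose and 16.4% fell at 35 weeks. *Hnf4a* averaged 356 ± 17.7 and 353 ± 19.2 in db/db Unx kidneys, against 410.1 ± 20.5 and 435 ± 51.1 in db/m kidneys, and changed by -0.21 and -0.29, with the sign turned when scaled to proximal tubule markers, of which it is 1. *Cebpa* rose by 0.91 and 0.50. Without libraries 03, 05 and 06, 1 of the 8 fell at 35 weeks and 0 rose, beside 9.45% and 8.39% of all genes. Scaled to proximal tubule markers, 6 of the 8 were called higher and 0 lower at each age, near the share of all genes higher (80.0% and 83.8%).

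Markers of other cells moved as well. The 8 markers of injured tubule summed to 2598 to 5260.3 in db/db Unx and 849 to 1035 in db/m kidneys at 26 weeks, and to 4631 to 8623 in db/db Unx and 873 to 1064 in db/m kidneys at 35 weeks, with 7 and 8 of them higher. Distal convoluted and connecting tubule markers summed to 1179.97 to 1578 in db/db Unx and 787 to 900.3 in db/m kidneys at 26 weeks, and to 1164 to 1651 in db/db Unx and 787 to 975 in db/m kidneys at 35 weeks. Macrophage markers summed to 91.8 to 186 in db/db Unx and 129 to 194 in db/m kidneys at 26 weeks, and to 127 to 513 in db/db Unx and 113 to 186 in db/m kidneys at 35 weeks. The high sums at 35 weeks were those of the db/db Unx libraries that stood apart, 03 (513), 05 (433) and 06 (421), while the other 2 had 204 and 127. Of the 6 macrophage markers, 3 rose by limma at 35 weeks with all libraries and 0 without those 3, with a median log2 change of 0.74 and 0.03. The injured tubule sums of the other 2 libraries were 5913 and 4631, and all 8 of those markers rose without the 3 libraries too. Of all genes tested, 17.2% rose at 26 weeks and 15.9% at 35 weeks, and 8.39% at 35 weeks without the 3 libraries. The part of cell makeup in the transporter values was not tested.

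**Figure D5:**
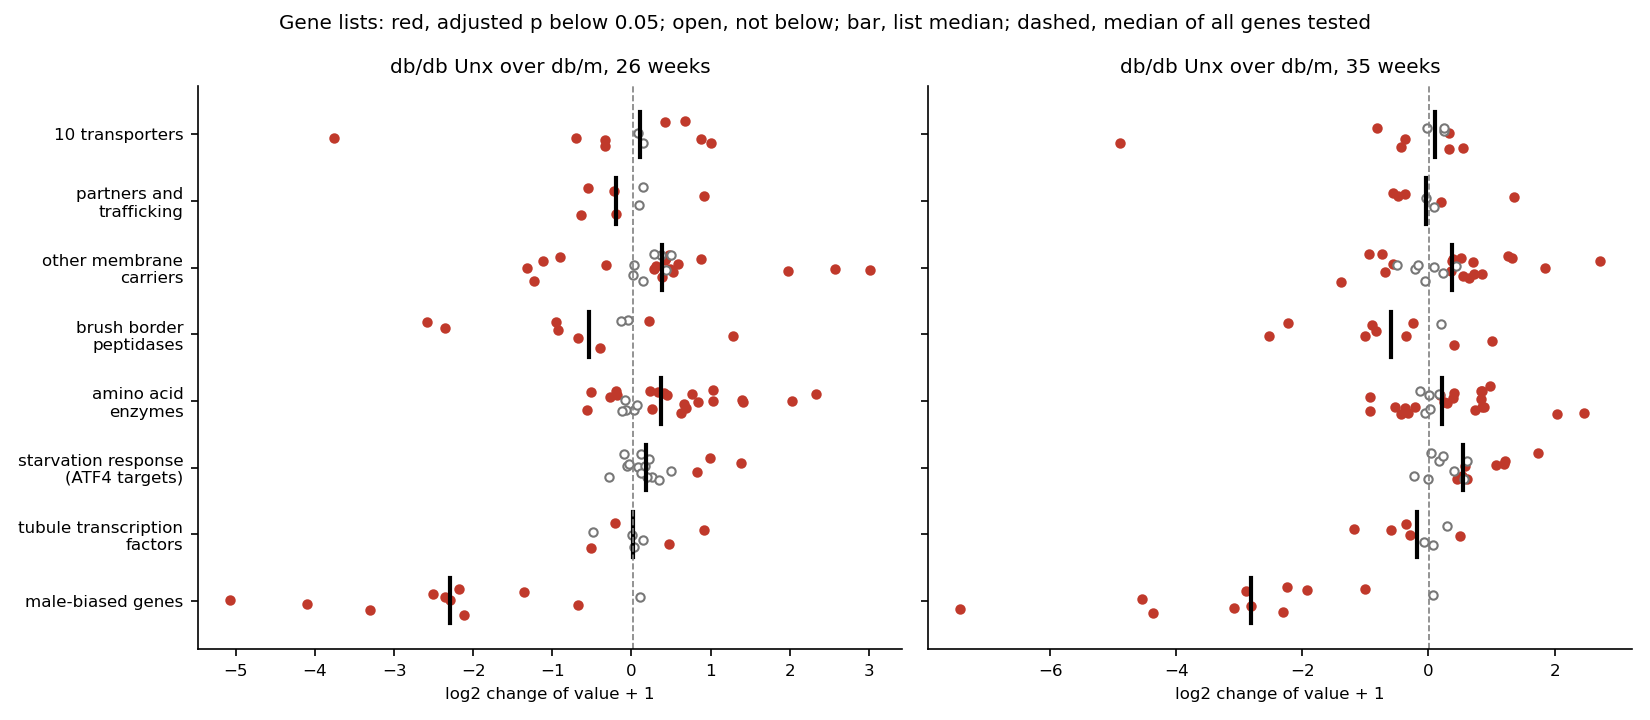
Log2 change in db/db Unx over db/m kidneys of every tested gene of 8 lists at 26 weeks (left) and 35 weeks (right); filled red points have an adjusted p below 0.05, black bars are list medians and the dashed line is the median of all genes. The male-biased list lies lowest, with medians of -2.29 and -2.81, and the 10 transporters have a median of 0.11. Scaled to proximal tubule markers, the medians of partners (0.41 and 0.71) and peptidases (0.07 and 0.14) turn positive. That of the transcription factors turns positive at 35 weeks (0.56). Under that scaling the median of all genes is 0.57 at 26 weeks and 0.69 at 35 weeks.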

How the data were processed

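Kidney total RNA of 28 libraries was sequenced after TRIzol and RNeasy extraction and Nextera XT library preparation, per the labels' protocols. The deposited table gives 14845 Ensembl genes a scaled signal each in every library, and 0 of its value columns lie outside the 28 samples. Per the submitters' processing notes, the authors used DRAGEN and the build GRCm38 (mm10). The DRAGEN version, annotation, strand setting, scaling method and treatment of multiply matching reads were not given in the sources used here. Divided by the library's step, 86.2% to 88.3% of low values came within 0.1 of a whole number, too few for a count model, so none was run.

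Symbols and coordinates came from GENCODE M21 (GRCm38), and 14834 identifiers matched. The filter kept 13495 genes that reached 1 in 5 or more libraries. Values were used as deposited, as log2(value + 1), which understates changes of low genes. limma 3.58.1 in R 4.3.3 was fitted to all genes with 1 mean per group and trended, robust moderation, and was tested on simulated data. Compared were diseased with db/m kidneys at each age, the later with the earlier age in each genotype, and the difference of the disease comparisons (interaction). Adjusted p-values in the text are from limma.

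The transporters and gene lists were chosen with earlier results of these data known. Named were all 10 transporters, up to 6 called genes per list by the larger absolute change, *Cltrn* and *Slc6a20a*, and the 3 genes most correlated with each transporter. *Slc7a10*, *Slc7a11*, *Slc7a15*, *Slc36a2*, *Slc38a5* and *Naaladl1* of the lists were not analysed here, and some genes of the lists are not reported by name here. Promoter windows are from RefSeq (GRCm38.p6). Alternatives were other pseudocounts, filters, scalings, moderation, array weights, compared groups alone, a replicate block, and libraries left out singly or together. Of these, scaling to the geometric mean of the markers and leaving out db/m libraries 04 of 26 weeks and 05 of 35 weeks were chosen after seeing the data.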

Additional observations from a re-analysis of the deposited data

Results flagged for a closer look

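The highest or lowest library of a group was compared with its nearest neighbour in 30 groups of 4 to 10 libraries, and 2 stood out, where chance gives about 1 in 20 groups. *Slc6a19* was 270.2 in db/m library 05 of 35 weeks, far under the other 5 libraries, whose lowest was 402. *Slc7a13* was 531 in db/m library 04 of 35 weeks, under the other 5 at 622 to 659. *Slc7a8* was flagged because its disease change differed between the ages by -0.76 on the log2 scale (35 minus 26 weeks, limma adjusted p = 0.024), as given in the report with the libraries on which the call rests.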

How the results depend on the processing

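Directions kept in both disease comparisons under every alternative run included those of *Slc7a13*, *Slc3a2* and *Slc6a20b* among the 10 transporters. The calls of *Slc7a13* and *Slc3a2* were kept too. Scaled to the sum of proximal tubule markers, the number of genes called was 11189 at 26 weeks, 11611 at 35 weeks, 2827 with age in db/db Unx, 541 with age in db/m and 315 for the interaction (2 transporters), against 4713, 4357, 1526, 999 and 74 (1 transporter) as reported; *Slc3a1* was then at 0.28 and 0.32, *Slc1a1* at 0.28 and 0.38, and *Slc7a9* at 0.72 at 35 weeks. Of the sum, *Slc34a1* made up 26.8%, *Acsm2* 25.6% and *Slc27a2* 23.4%. Scaled to their geometric mean, the counts were 9927, 10400 and, for the interaction, 244 (2 transporters), and *Slc3a1* was at 0.11 and 0.12, *Slc1a1* at 0.11 and 0.18 and *Slc7a9* at 0.53. The share of higher calls was 96.5% and 97.5% by the sum, and 94.2% and 95.8% by the geometric mean, against 49.2% and 49.3% as reported. Quantile normalization called 4 transporters with age in db/m. The interaction called 178 genes and 2 transporters with array weights, and 41 genes without trended and robust moderation.

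Without db/db Unx libraries 03, 05 and 06 of 35 weeks, 2407 genes were called at 35 weeks, 8 genes and 1 transporter with age in db/db Unx, and 0 genes and 0 transporters for the interaction by limma (1168 at an unadjusted p below 0.05, against 1699 with all libraries; no other tool was run). The cause was not tested, and fewer libraries also widen the errors. Without db/m libraries 04 of 26 weeks and 05 of 35 weeks, 479 genes and 1 transporter were called with age in db/m, and 19 genes and 0 transporters for the interaction. Leaving out each library in turn gave 4178 to 4758 genes and 7 to 8 transporters at 26 weeks, 3751 to 4293 and 6 to 8 at 35 weeks, 633 to 1748 and 3 to 4 with age in db/db Unx, 578 to 1140 and 0 to 2 with age in db/m, and 7 to 249 genes and 0 to 1 for the interaction.

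Same-numbered libraries did not deviate together: 0 of 30 pairs correlated above 0.1 (-0.13 to 0.08), and 3 of 28 libraries matched their own number best. The numbers thus gave no sign of a pairing, though a pairing with a small effect would not be seen this way. With the replicate number as a block, 483 genes were called with age in db/db Unx and 29 for the interaction.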
